A study of Mus musculus with 24 samples.

Results

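Methylation was described here at 33 mouse genes that encode receptors for glutamate and GABA, the main excitatory and inhibitory transmitters of the hippocampus. The genes were listed by name, with earlier results of these data known, and every CpG of the methylation table inside the GENCODE M21 span of one of them, or within 2000 bp of it, was taken. This gave 1869 CpGs of the 694379 in the table, counted by strand, of which 692 lay within 1000 bp of a transcript start of the gene (promoter CpGs), 1082 lay elsewhere in the gene (body CpGs) and 95 lay just outside it. There were 3 genes of AMPA receptor subunits, 5 of kainate receptor subunits, 7 of NMDA receptor subunits, the delta receptor gene Grid1, 7 metabotropic glutamate receptor genes, 8 genes of GABA-A receptor subunits and both genes of the GABA-B receptor. One gene, Gabra6, which encodes a subunit best known from cerebellar granule cells, had no CpG in the table, so 32 genes were measured.

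The study asked whether an enriched environment changes DNA methylation in the ageing hippocampus. Reduced representation bisulfite sequencing (RRBS), which reads the CpG-rich part of the genome, was applied to the dentate gyrus of 24 female C57BL/6JRj mice, 8 in each of 3 groups. Young STD mice were kept in standard cages and were 3 months old, aged STD mice were kept in standard cages and were 17 months old, and aged ENR mice were also 17 months old but had spent the last 3 months in a large enclosure with tunnels and toys, where animals lived in a bigger group. No allele was altered and no drug was given in any group. Enriched mice were housed together, so that enrichment and the shared enclosure cannot be told apart, and each sample was bulk tissue, in which a change in methylation and a change in the share of cell types cannot be told apart. Between 799 and 1620 receptor CpGs had a value in a mouse, 17 had a value in all 24 mice and the median CpG had a value in 14. A value was the percentage of methylated reads, and 82.7% of the values at receptor CpGs were exactly 0 or 100%. The table lists only CpGs with values from 3 or more mice in every group. CpGs under 10 reads had been dropped by the study, but the depth behind each value is unknown, since read numbers are not in the table. The library of aged STD replicate 5 stood apart, with a mean of 23.6% over all its CpGs where the other 23 mice lay between 35.8 and 44.5%. It covered receptor CpGs that were highly methylated in the other mice 0.411 times as often as poorly methylated ones, where this ratio was 0.766 or more in the other mice. Overall and class levels, the counts of tests and the differences for which a region or CpG was chosen are therefore also given without it, where it had a value.

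Fast excitation in the dentate gyrus is carried by AMPA and kainate receptors, which open a cation channel when glutamate binds, and by NMDA receptors, whose calcium entry starts synaptic plasticity. Metabotropic glutamate receptors and GABA-B receptors act through G proteins, and GABA-A receptors are chloride channels that inhibit granule cells phasically at synapses and tonically outside them. CpG-rich promoters of genes used in a tissue are usually free of methylation, whereas gene bodies are usually methylated.

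The receptor promoters were nearly free of methylation, and the bodies ranged from almost unmethylated to almost fully methylated. The level of a region in a mouse was the mean over its CpGs with a value, corrected for which CpGs that mouse covered, so that it could fall slightly below 0 or pass 100%. Among the 27 genes with at least 5 promoter CpGs, the median promoter level was 2.48%, and 22 lay under 5%. The median over all 16666 genes was 2.56%, and 63.9% of them lay under 5%. Among the 26 genes with at least 5 body CpGs, the median body level was 53.1%, against 68.7% over 10499 genes. At single CpGs, 616 of the 692 promoter CpGs (89.0%) were under 10% and 8 were over 90%, whereas 272 of the 1082 body CpGs (25.1%) were under 10% and 244 (22.6%) were over 90%. For all CpGs of the table, 81.4% of those near a start and 17.9% of those in bodies were under 10%.

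**Figure D1:**
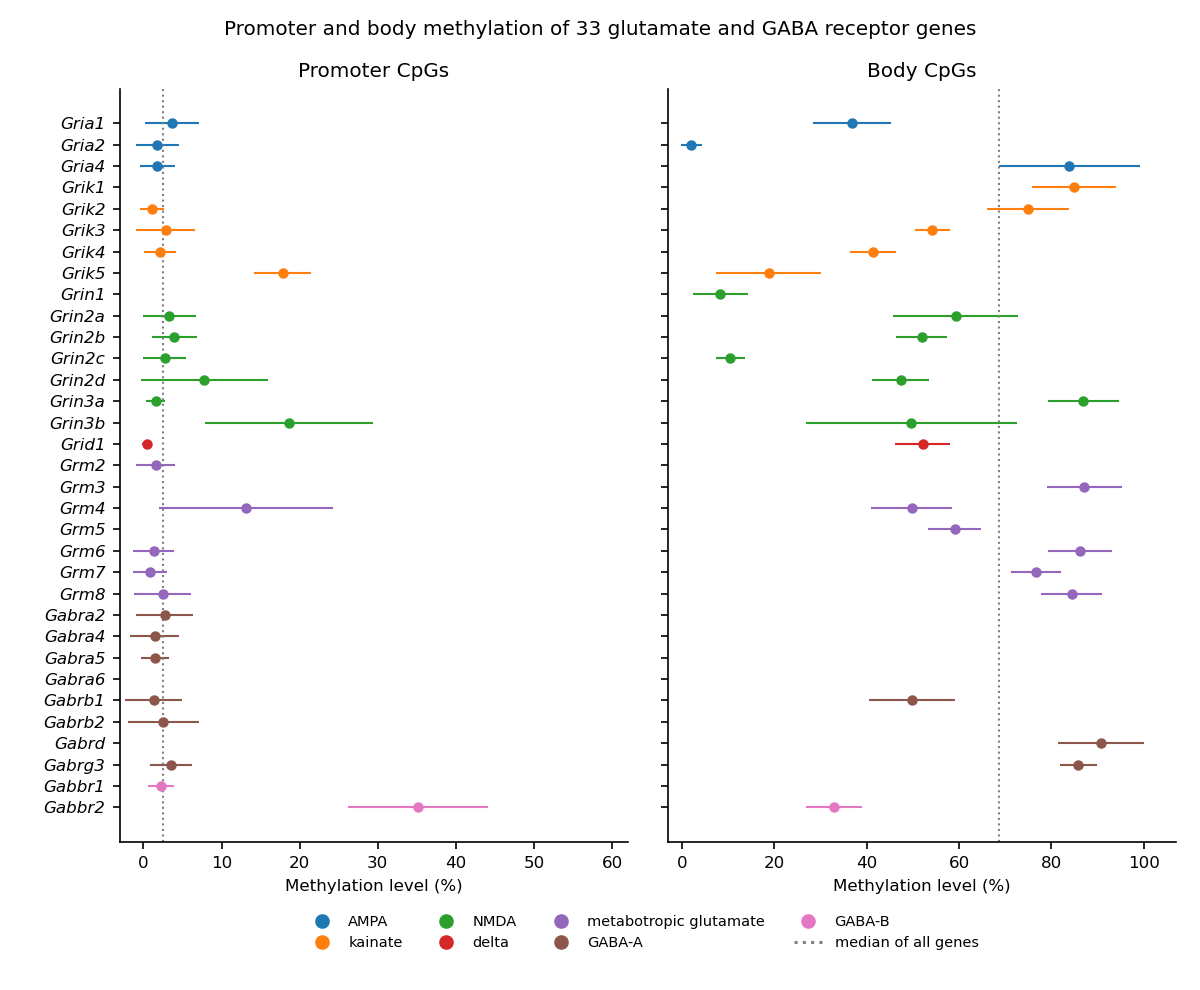
Promoter (left) and body (right) methylation level of each receptor gene in percent, as the mean (point) and SD (bar) over the mice with a value, coloured by receptor class; the dotted line is the median of all genes. Most promoters sit under 5%, with Gabbr2, Grin3b, Grik5 and Grm4 to the right, and bodies spread from 1.96% in Gria2 to 90.8% in Gabrd.

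Pooled over CpGs, the AMPA receptor genes had the lowest body methylation of the classes, at 25.1%. Their promoter levels were 1.77% ± 2.27 (SD, n = 22 mice) for Gria4, 1.78% ± 2.75 (n = 23) for Gria2, whose subunit keeps AMPA channels closed to calcium, and 3.66% ± 3.48 (n = 23) for Gria1. In the body, Gria2 was at 1.96% ± 2.23 (n = 24), and all its 38 body CpGs lay in exons, at most 2.55 kb from the outermost start. Gria1 was at 36.8% ± 8.50 (n = 24), and Gria4 at 83.9% ± 15.2 over 8 CpGs (n = 19). Both lay above the body of Gabbr2 (32.9%), the only GABA-B gene with a body level. Over the class, 81 body CpGs averaged 24.9% ± 1.61 in young STD mice, 25.2% ± 3.78 in the aged STD group and 25.3% ± 5.47 after ENR (n = 8 each).

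Among the kainate receptor genes, Grik2, Grik3 and Grik4 had promoter levels of 1.13% ± 1.52, 2.83% ± 3.81 and 2.09% ± 2.05, while Grik5 was at 17.8% ± 3.70. Grik1 to Grik3 encode subunits that can form channels by themselves, and Grik4 and Grik5 encode high-affinity subunits that need those as partners. Grik1 had 4 promoter CpGs only, which averaged 0.862%. Body levels ran from 84.9% in Grik1 and 75.0% in Grik2 to 54.2% in Grik3, 41.3% in Grik4 and 18.7% in Grik5. The SD between mice was 3.82 for the 96 body CpGs of Grik3 and 5.02 for the 151 of Grik4. It was larger in the genes with fewer body CpGs, but did not rise steadily as their number fell. The SD was 11.4 for the 25 of Grik5, 9.04 for the 20 of Grik1 and 8.94 for the 12 of Grik2.

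Of the NMDA receptor genes, Grin2a, Grin2b, Grin2c and Grin3a had promoter levels between 1.57% (Grin3a) and 3.95% (Grin2b). The glutamate-binding subunits encoded by Grin2a to Grin2d set the kinetics of the channel, and Grin3a and Grin3b encode glycine-binding subunits that lower its calcium entry. Grin2d was at 7.80% ± 8.17 (n = 24) and Grin3b at 18.6% ± 10.8 (n = 20). Body levels were 8.30% ± 6.04 in Grin1, which encodes the subunit that every NMDA receptor needs, and 10.5% ± 3.17 in Grin2c. They were 47.4% in Grin2d, 51.9% in Grin2b, 59.3% in Grin2a and 86.9% in Grin3a. The body of Grin3b, with 7 CpGs, was at 49.6% ± 22.9 over 11 mice. Grid1, whose product organizes synapses more than it conducts current, had the lowest promoter level of all, 0.460% ± 0.669 (n = 21), and a body level of 52.1% ± 6.05 (n = 24).

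Of the 6 metabotropic glutamate receptor genes with a body level, 4 lay above the median of all gene bodies (68.7%) and 2, Grm4 and Grm5, below it. Grm3 was at 87.2% and Grm2, which has 3 body CpGs, could not be given a level. Both encode receptors that lower transmitter release. Grm6, the receptor of retinal bipolar cells, was at 86.2%, Grm8 at 84.4%, Grm7 at 76.6% and Grm4 at 49.8%, and these 4 genes encode receptors of a further group that inhibits adenylyl cyclase. Grm5, which couples to calcium release and supports plasticity, was at 59.0%. Promoters were at 0.824% in Grm7, 1.32% in Grm6, 1.57% in Grm2, 2.48% in Grm8 and 13.1% ± 11.2 in Grm4.

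The promoters of the GABA-A receptor genes lay between 1.32% (Gabrb1) and 3.51% (Gabrg3). Gabra2 was at 2.75%, Gabrb2 at 2.53%, Gabra5 at 1.48% and Gabra4 at 1.44%, where Gabra4 and Gabra5 encode subunits of receptors outside synapses. Gabra4 and Gabrb1 lie head to head and share 11 promoter CpGs, so their levels are not independent. Gabrd, whose subunit carries tonic inhibition of granule cells, had 1 promoter CpG, at 81.2%, and the highest body level, 90.8% ± 9.29 over 7 CpGs (n = 12). Among the other GABA-A genes, Gabrg3 was at 85.8% ± 4.03 over 49 CpGs, and the 15 body CpGs of Gabrb1 averaged 49.8% ± 9.22 (n = 24 each). Of the GABA-B genes, Gabbr1, which encodes the subunit that binds GABA, was at 2.25% ± 1.67 over 54 promoter CpGs, and Gabbr2, which encodes the subunit that couples to G proteins, was at 35.1% ± 8.96 over 17 promoter CpGs. The 126 body CpGs of Gabbr2 averaged 32.9% ± 6.06 (n = 24).

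In Gabbr2, Grik5 and Grm4 the high CpGs lay within 1000 bp of starts inside the gene. At the outermost start of Gabbr2, 11 CpGs averaged 4.96%, whereas 6 CpGs near a start far inside the gene averaged 94.1%. In Grik5, 19 CpGs at the outermost starts averaged 2.65%, and 2 CpGs each near starts 7153 and 11352 bp inside averaged 93.7 and 84.0%. The 6 CpGs at the outermost start of Grm4 averaged 4.53%, and 8 CpGs near a start 18099 bp inside averaged 26.9%. Their cluster lay a median of 929 bp from that start, near the edge of the window. At another start of Grm4, 7677 bp inside, 9 CpGs averaged 4.69%. In Grin2a the levels were 1.02% over 37 CpGs at the outermost starts and 9.62% over 15 CpGs at an inner start. At other inner starts, levels were 0.728% over 27 CpGs in Grik2 (outermost 1.39%), 0.864% over 7 CpGs in Gabrb1 (outermost 2.46%) and 2.64% over 20 CpGs in Gabbr1 (outermost 2.08%). They were 3.33% over 14 CpGs in Grm8 (outermost 1.88%), 3.95% over 18 CpGs in Grin2c (outermost 2.26%) and 7.17% over 6 CpGs in Grin2b (outermost 3.13%). Near the inner start of Grin1, 3 CpGs averaged 23.3%, and none was measured at its outermost start. Near an inner start of Grin2d, 17 CpGs averaged 7.54%, again with none measured at the outermost start. Grin3b differed, since its 11 promoter CpGs lay around 1 start, 6 of them under 10% and the highest at 74.7%.

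The sequence of an unmethylated promoter is given as an example, read from the plus strand of GRCm38, 5′ to 3′, with the measured CpGs in capitals. It is the 300 bases upstream of Gria2 (chr3:80802836-80803135, gene on the minus strand), in a cluster of CpGs at 1.52% with 22 CpG sites in the 300 bp about its centre.
Gria2 upstream: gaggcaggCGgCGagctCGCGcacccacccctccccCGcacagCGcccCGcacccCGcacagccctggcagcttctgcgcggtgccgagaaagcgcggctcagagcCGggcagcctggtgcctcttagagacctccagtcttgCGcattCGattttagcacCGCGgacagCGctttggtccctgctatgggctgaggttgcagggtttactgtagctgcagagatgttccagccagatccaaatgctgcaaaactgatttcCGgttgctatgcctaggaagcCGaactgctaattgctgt
The stretch holds 21 CpG sites, 16 of them measured.

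**Figure D2:**
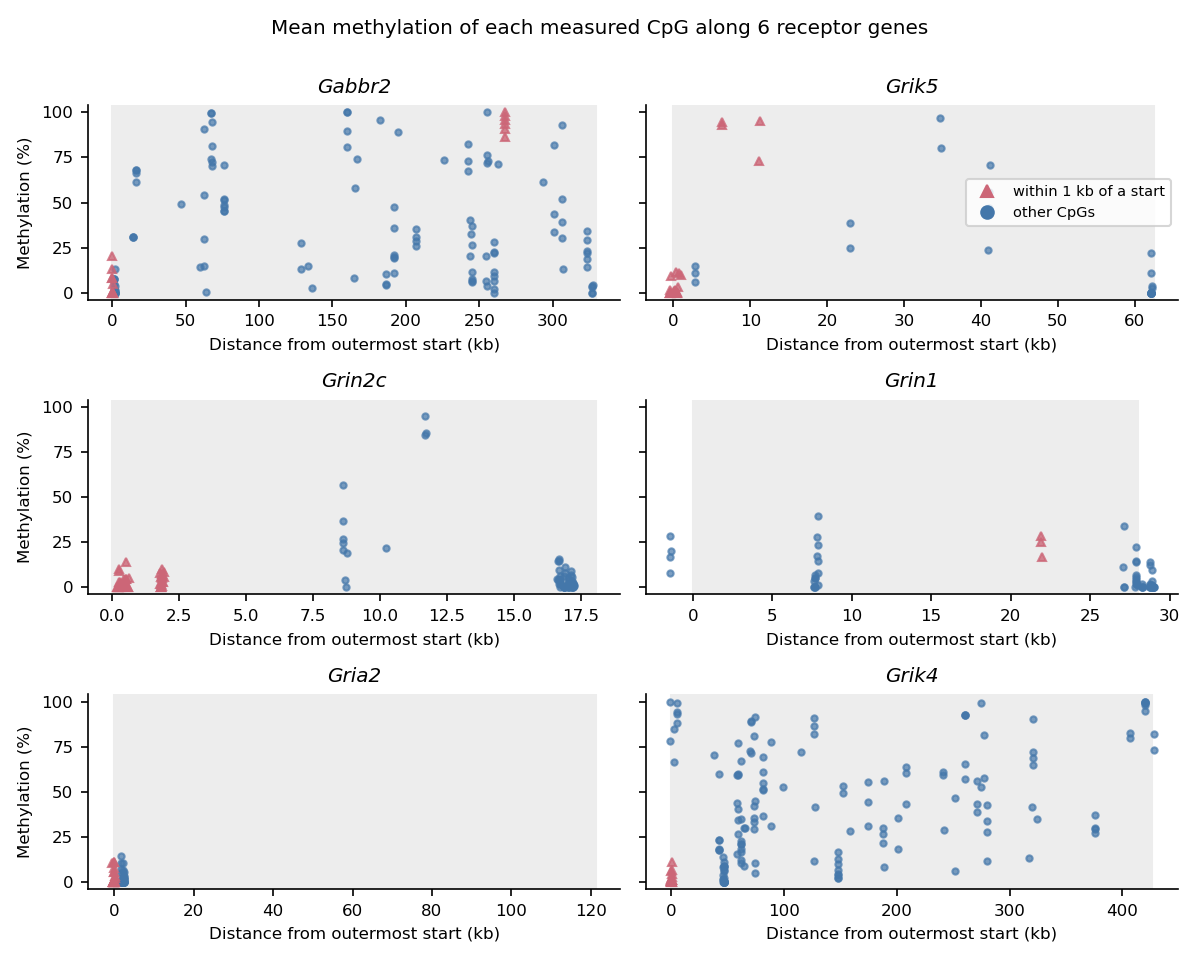
Mean methylation in percent (y axis, mean of the 3 group means) of each measured CpG against its distance in kb from the outermost start (x axis) in 6 receptor genes; triangles are CpGs within 1000 bp of any start, circles are other CpGs, and the grey band is the gene. Triangles at the left end are low in the 5 genes that have them (Grin1 has none there), the inner starts of Gabbr2 and Grik5 are high, and the right ends of Gabbr2, Grik5, Grin2c and Grin1 are low again.

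Unmethylated stretches were not limited to the starts. Clusters were formed from at least 4 CpGs with gaps of at most 100 bp, and 22 of the 81 clusters in receptor gene bodies, in 11 genes, were under 10%. Of these, 8 lay within 2500 bp of the outermost start, and 7, in 6 genes, lay in the last exon of a coding transcript, where 11 of the 81 clusters lay in all. The low clusters had a median of 17 CpG sites in 300 bp, the 40 clusters between 10 and 90% had 7 and the 19 clusters over 90% had 9. Counted by CpG, 81 of the 136 receptor body CpGs in last exons of coding transcripts of any gene (59.6%) were under 10%. The share was 20.2% in the other 946 body CpGs of the receptor genes. Over all genes the shares were 27.7% in last exons and 16.8% in other body CpGs. The CpGs of a last exon share fragments and mice, and 50 of the 136 belong to Grin2c, so these shares were not tested.

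In the last exons, 50 CpGs of Grin2c averaged 3.41%, 14 of Grik5 2.83%, 15 of Grin1 8.15%, 5 of Grin2d 2.37% and 5 of Gabbr2 2.26%. Those of Grin2b (9 CpGs, 82.6%), Gabrd (7 CpGs, 89.9%), Grid1 (6 CpGs, 94.0%) and Grin3a (4 CpGs, 87.5%) were methylated instead. Of the 4 CpGs in Grin3a, 3 lay in exons of Grin3a itself, at 94.4% on average. Of the 81 low CpGs, 15 also lay within 1000 bp of a start of another annotated gene. These were all 10 of Grin1, at the antisense gene Grin1os, and all 5 of Grin2d, at Gm45441. The 9 last-exon CpGs of Grin2b, at 82.6%, lay within 1000 bp of a start of another gene too, Gm14329. Coding stretches of the last exons of Grin2c (chr11:115249978-115250277, in a cluster at 2.05%) and Grin2d (chr7:45833679-45833782, in a cluster at 2.70%) are shown because they are CpG-rich and unmethylated although they lie at the far end of the gene, that of Grin2d near the start of Gm45441 and that of Grin2c with no start of another gene within 1000 bp. Both genes are on the minus strand, the plus strand of GRCm38 is printed and measured CpGs are in capitals.
Grin2c last exon: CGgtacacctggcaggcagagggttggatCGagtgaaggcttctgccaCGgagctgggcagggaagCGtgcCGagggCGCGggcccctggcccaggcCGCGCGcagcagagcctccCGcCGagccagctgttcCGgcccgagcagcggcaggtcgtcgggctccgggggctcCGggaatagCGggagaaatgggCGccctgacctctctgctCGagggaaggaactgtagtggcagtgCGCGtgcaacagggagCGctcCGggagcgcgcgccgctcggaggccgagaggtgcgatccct
Grin2d last exon: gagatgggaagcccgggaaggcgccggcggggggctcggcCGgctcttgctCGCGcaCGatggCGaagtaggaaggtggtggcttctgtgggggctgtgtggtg
These stretches hold 33 and 10 CpG sites, of which 21 and 5 were measured.

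By distance from a start, the mean over receptor CpGs lay below that of the table in each bin, which is a description of pooled CpGs and was not tested. Within 250 bp of the nearest start of the gene, 418 receptor CpGs averaged 3.77%, against 7.67% for all CpGs at that distance from any start. Between 1001 and 2000 bp, 117 receptor CpGs averaged 13.1%, against 40.5%. The gap was smaller between 2001 and 5000 bp, where 93 averaged 50.5%, against 56.4%. Between 5001 and 20000 bp 237 averaged 37.2%, against 66.1%. Of these 237, 50 were the last-exon CpGs of Grin2c, which averaged 3.41%. Beyond 20000 bp, 730 receptor CpGs averaged 55.9%, against 73.0%. The distance was taken to the gene's own starts for receptor CpGs and to the nearest start of any gene for the table. Exonic body CpGs averaged 30.1% (231 CpGs) and intronic ones 53.8% (851 CpGs), where the averages over all genes were 56.8 and 61.2%. The exonic average rested on few genes, since 132 of the 231 CpGs belonged to Grin2c, Gria2, Grin1 and Grik5, where they averaged 3.41, 2.08, 9.15 and 2.83%, and the other 99 averaged 64.6%.

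RefSeq promoter windows (GRCm38, 250 bases before to 50 after a start) were at hand for 24 of the 33 genes, 30 windows in all. The SP box GGGCGG, searched on both strands, was in 16 of the 30 windows (53.3%) and in 35.7% of all 32851 windows. The CRE TGACGTCA was in 0 of the 30 and in 1.79% of all, and the NRF1 core site GCGCATGC was in 1 of the 30, that of Gabrb1, and in 2.71% of all. Within 1000 bp of a start, 18 measured CpGs of 9 receptor genes lay inside an SP box, 13 of them at 0% and the highest at 8.44%. Binding of NRF1 is known to be sensitive to methylation, and 2 measured CpGs of Gabrb2 (chr11:42421256 and chr11:42421262) lay in overlapping sites of this kind on opposite strands. They were at 4.57 and 0% and are shown with the first site in capitals.
Gabrb2 site: tggtacgccgtGCGCATGCgctccacatta

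The first comparison asked what differs with age in standard housing, as aged STD minus young STD mice, and the second what differs with enrichment late in life, as aged ENR minus aged STD mice. Both use the same aged STD mice, so their values are given side by side and were not related to each other. Each was tested with limma (moderated variances, all 3 groups in the fit) with Benjamini-Hochberg adjustment over every CpG, cluster, promoter or body of the table. No receptor promoter, body, cluster or CpG passed an adjusted p under 0.05 in either comparison. Over the 684 promoter CpGs of the 27 genes, the mean level was 4.62% ± 0.969 for young STD, 4.13% ± 0.717 for aged STD and 4.24% ± 0.631 for aged ENR mice (SD, n = 8 each). Over the 1073 body CpGs of the 26 genes it was 49.7% ± 1.29, 48.3% ± 2.54 and 47.4% ± 1.54. Without aged STD replicate 5, the aged STD promoter level was 4.28% ± 0.638 and the body level 49.0% ± 1.61. The ranges of the groups overlapped in both, and for the bodies they ran from 47.9 to 51.7% for young STD, 43.2 to 51.1% for aged STD and 45.8 to 49.2% for aged ENR mice.

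By class, the mean body level of aged STD mice differed from that of young STD mice by between −2.91 points (delta) and 0.320 points (AMPA). A point is 1% of methylation. The AMPA difference was −0.572 points without aged STD replicate 3 and 1.24 points without aged STD replicate 8. In NMDA receptor genes the body levels were 41.1% ± 2.07, 39.7% ± 2.33 and 37.7% ± 3.25 (young STD, then aged STD, then aged ENR), and in GABA-A genes they were 80.4% ± 4.65, 78.4% ± 3.61 and 76.4% ± 3.77. Kainate receptor genes were at 49.1% ± 2.80, 48.3% ± 4.28 and 46.1% ± 3.27, and metabotropic genes at 73.9% ± 3.40, 71.9% ± 3.37 and 73.1% ± 0.999. Delta receptor bodies were at 54.5% ± 3.90, 51.6% ± 7.16 and 50.1% ± 6.53, and GABA-B bodies at 33.8% ± 5.93, 31.8% ± 5.57 and 32.9% ± 7.22 (n = 8 each). Within each class the ranges of the 3 groups overlapped. Without aged STD replicate 5, which had the lowest delta body level (34.6%), the aged STD body levels were 25.4% (AMPA), 49.4% (kainate), 39.7% (NMDA), 54.0% (delta), 72.9% (metabotropic), 79.0% (GABA-A) and 32.6% (GABA-B), so that the delta level was close to that of young STD mice and the kainate difference turned from −0.799 to 0.368 points. Promoter means of the classes differed by between −1.24 points (metabotropic) and 0.858 points (AMPA) for aging and by between −1.59 points (AMPA) and 1.48 points (metabotropic) for ENR. The metabotropic values rested on single mice, since the aging difference was −0.0312 points without young STD replicate 8 (13.4%) and the ENR difference was −0.757 points without aged ENR replicate 1 (20.9%). The aged STD promoter levels without aged STD replicate 5 were 3.10% (AMPA), 4.62% (kainate), 4.25% (NMDA), 0.318% (delta), 3.98% (metabotropic), 1.90% (GABA-A) and 10.2% (GABA-B).

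At the promoters, 2 of the 27 receptor genes had an unadjusted limma p under 0.05 for aging, both lower in aged STD mice, where 5.37% of all genes did and 0.006% passed the adjusted threshold. For ENR it was 1 of 27, higher in aged ENR mice, where 4.79% of all genes did and 0.012% passed the adjusted threshold. The median difference over the 27 promoters was −0.0911 points for aging and 0.124 points for ENR, against 0 and −0.162 points over all genes. The counts were 0 and 1 when aged STD replicate 5 was left out, where 5.37 and 5.19% of all genes had such a p. At the bodies, 1 of 26 genes had an unadjusted p under 0.05 for aging and 0 of 26 for ENR, where 6.04 and 4.95% of all genes did, and 0.0% of all genes passed the adjusted threshold in either comparison. The median body difference was −1.10 points for aging and −1.40 points for ENR, against −0.524 and −0.367 points over all genes. Of the 26 bodies, 17 were lower in aged STD than in young STD mice and 18 were lower in aged ENR than in aged STD mice, where 5777 and 5679 of all 10499 bodies were. An unadjusted p under 0.05 was found for 0 bodies for aging and 1 for ENR when aged STD replicate 5 was left out, against 5.79 and 5.69% of all genes.

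**Figure D3:**
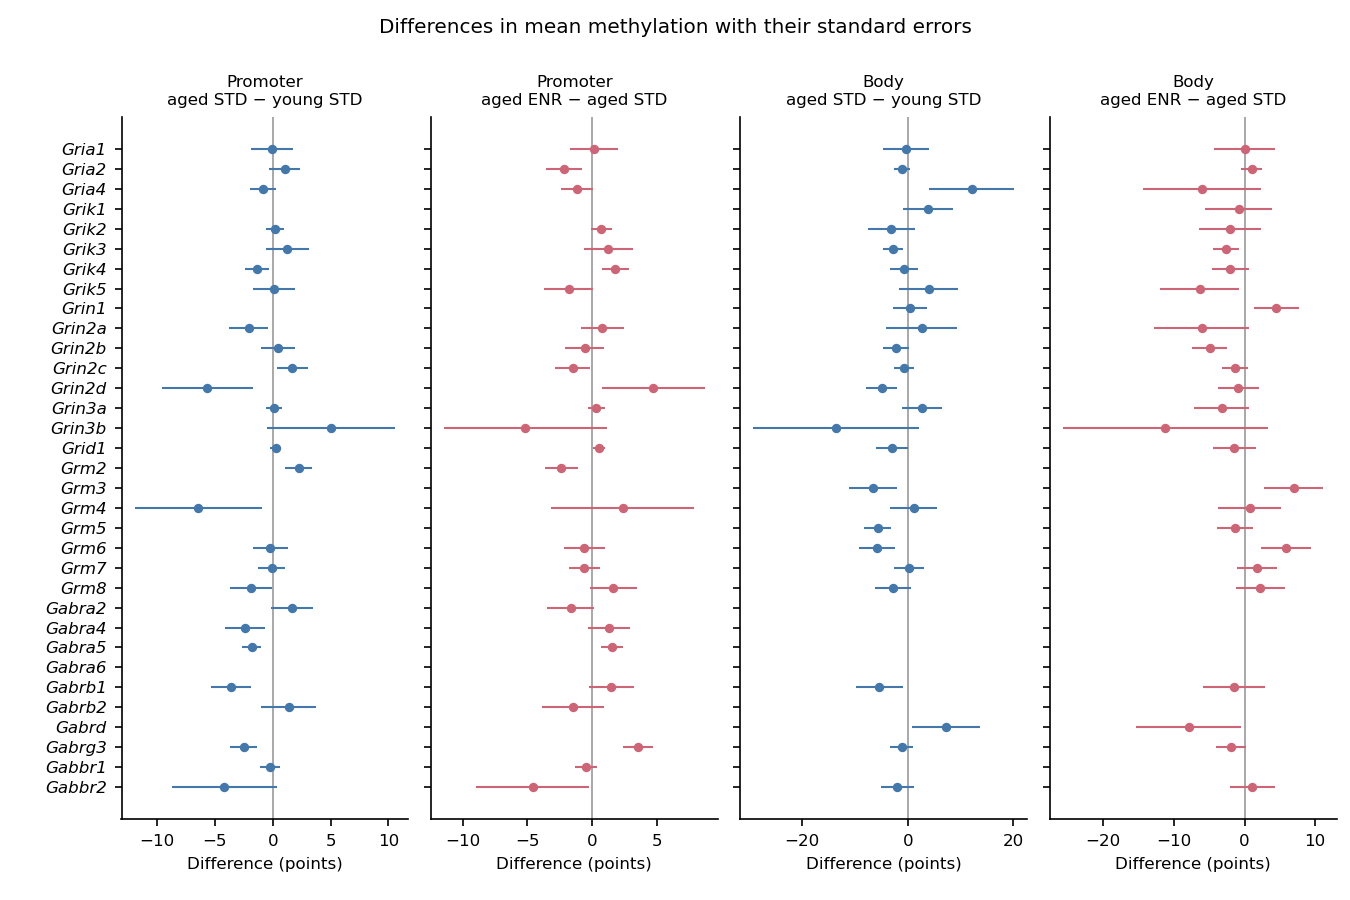
Difference in mean methylation level in percentage points (x axis) with its limma standard error (bar) for each receptor gene (y axis), for promoters (left pair) and bodies (right pair), in the aging comparison (blue) and the ENR comparison (red). Most standard errors cross or come near 0; promoter differences lie between −6.44 and 5.03 points for aging and body differences between −13.6 and 12.1 points.

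The smallest promoter p-values were in GABA-A genes. The promoter of Gabrg3 (28 CpGs, which also lie within 1000 bp of a start of Gm9962) was at 0.847 to 8.46% in the 8 young STD mice (median 4.27%), at −1.39 to 4.60% in the 8 aged STD mice (median 1.12%) and at 2.30 to 8.63% in the 8 aged ENR mice (median 4.28%). The groups overlapped, but 5 of the 8 aged STD mice were below the lowest aged ENR mouse. The difference was −2.52 ± 1.16 points for aging (SE, limma, adjusted p = 0.875) and 3.497 ± 1.16 points for ENR (adjusted p = 0.931). Gabra5 (39 CpGs) was at −0.22 to 6.27% (median 2.20%) for young STD and −0.371 to 2.89% (median −0.0805%) for aged STD mice. Aged ENR mice were at 0.0353 to 3.39% (median 2.09%). The 4 lowest animals were aged STD mice, at −0.371 to −0.271%, just under a young STD mouse at −0.22%. Levels under 0 come from the correction for covered CpGs, so this order does not separate the groups. The Gabra5 differences were −1.83 ± 0.822 points for aging (limma, adjusted p = 0.875) and 1.53 ± 0.822 points for ENR (adjusted p = 0.931). Without young STD replicate 4 the Gabra5 aging difference was −1.15 points. Without aged STD replicate 5, the differences for aging and ENR were −2.51 and 3.45 points in Gabrg3 and −1.81 and 1.54 points in Gabra5. Gabrg3 and Gabra5 encode subunits of GABA-A receptors and are neighbours on chromosome 7.

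Gabrb1 (18 promoter CpGs) was at −1.71 to 13.8% (median 1.52%) in young STD mice, −5.31 to 2.68% (median 0.118%) in 7 aged STD mice and −1.60 to 5.56% (median 0.529%) in aged ENR mice. Its aging difference was −3.61 ± 1.76 points (limma, adjusted p = 0.875), and −1.70 points without young STD replicate 7, the mouse at 13.8%. Without aged STD replicate 5 it was −3.83 points. Grm2 (17 CpGs) was at −0.671 to 6.15% (median 0.0374%) for young STD, 0.0155 to 9.27% (median 2.25%) for aged STD and 0 to 1.47% (median 0.398%) for 6 aged ENR mice. The ENR difference was −2.38 ± 1.27 points (limma, adjusted p = 0.931), and it turned to 1.71 points when promoters reached 2000 bp from the start. It was −1.58 points without aged STD replicate 4 and −2.39 points without aged STD replicate 5. None of the 3 highest promoter levels passed the adjusted threshold (limma). Gabbr2 differed by −4.20 ± 4.54 points for aging and −4.58 ± 4.35 points for ENR, where aged ENR replicate 3 was at 8.33% and the other 6 aged ENR mice at 30.5% or more. The aging difference was −0.142 points without young STD replicate 1, the mouse at 59.6%, and the ENR difference was −0.822 points without aged ENR replicate 3. Grin3b differed by 5.03 ± 5.54 points for aging and −5.16 ± 6.27 points for ENR, and by 0.332 and −0.87 points without aged STD replicate 3, the mouse at 43.4%. They were 9.42 and −8.95 points without aged STD replicate 7, and the aging difference was 8.06 points without young STD replicate 1 and 2.96 points without young STD replicate 4. Grik5 differed by 0.115 ± 1.85 points for aging, which ran from −1.08 to 1.22 points when single mice were left out, and by −1.83 ± 1.85 points for ENR, which was −0.602 points without aged STD replicate 7 and −2.76 points without aged STD replicate 4. Leaving out aged STD replicate 5, the differences for aging and ENR were −4.88 and −3.91 points in Gabbr2, 6.35 and −6.55 points in Grin3b, and −0.257 and −1.46 points in Grik5.

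Among the bodies, Grm5 (33 CpGs) was at 57.2 to 70.6% (median 62.8%) for young STD, 49.4 to 65.8% (median 58.6%) for aged STD and 49.8 to 62.6% (median 56.7%) for aged ENR mice. Its differences were −5.68 ± 2.59 points for aging (limma, adjusted p = 0.806) and −1.35 ± 2.59 points for ENR (adjusted p = 0.983). Without aged STD replicate 5 the aging difference was −4.54 points. Grin2b (86 CpGs) was at 45.1 to 64.1% (median 56.0%) for young STD, 47.6 to 56.8% (median 53.5%) for aged STD and 39.5 to 54.7% (median 48.7%) for aged ENR mice. Its ENR difference was −4.95 ± 2.47 points (limma, adjusted p = 0.962) and its aging difference −2.19 ± 2.47 points. Without aged ENR replicate 6 the ENR difference was −3.17 points. Grm6 differed by −5.84 ± 3.43 points for aging and 5.86 ± 3.54 points for ENR, Grin2d by −4.92 ± 2.95 points for aging and Grm3 by 6.95 ± 4.22 points for ENR (limma, adjusted p = 0.860 for aging and 0.962 for ENR). In each of these 5 bodies the ranges of the groups overlapped. Leaving out 1 mouse took the aging difference to −3.57 points in Grm6 (aged STD replicate 2) and −2.80 points in Grin2d (aged STD replicate 3). The aging differences of Grm6 and Grin2d were −7.18 and −4.74 points, and the ENR differences of Grin2b, Grm6 and Grm3 were −5.0, 7.16 and 6.93 points without aged STD replicate 5.

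**Figure D4:**
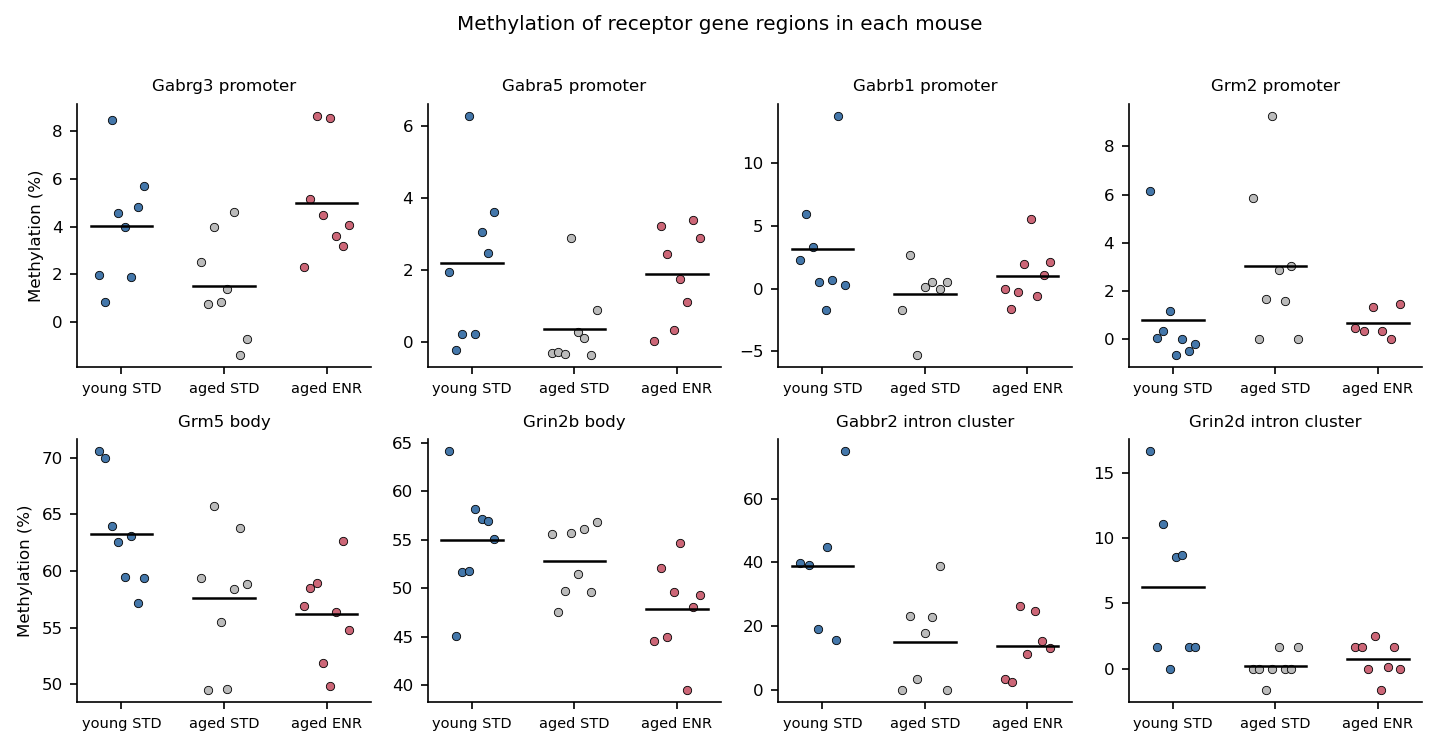
Methylation level in percent (y axis) of 4 receptor promoters, 2 bodies and 2 intron clusters in each mouse (points) by group (x axis), with the group mean (line). The groups overlap in each of the 8 panels; in the Grin2d intron cluster the aged mice lie between −1.68 and 2.46% and 4 of the 8 young STD mice lie above them.

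The median cluster level of the promoters was 2.12% and that of the bodies 36.2%. Of the 150 receptor clusters tested, 7 had an unadjusted limma p under 0.05 for aging (3 higher, 4 lower in aged STD mice) and 8 for ENR (6 higher, 2 lower in aged ENR mice), 4.67 and 5.33%, where 4.88 and 4.16% of all 53498 clusters did and 0.0 and 0.00374% passed the adjusted threshold. The counts without aged STD replicate 5 were 9 of 146 for aging (7 higher in aged STD mice) and 9 for ENR (5 higher in aged ENR mice), 6.16% in both, against 4.93 and 4.34% of all clusters. The smallest p for aging was that of 6 CpGs in an intron of Grin2d (chr7:45873290-45873396). Young STD mice were at 0 to 16.7% (median 5.13%), aged STD mice at −1.68 to 1.68% (median 0) and aged ENR mice at −1.68 to 2.46% (median 0.911%). Of the young STD mice 4 were above 8% and the other 4 lay in the range of the aged mice. The aging difference was −6.06 ± 1.77 points (limma, adjusted p = 0.738) and the ENR difference 0.535 ± 1.77 points. In an intron of Gabbr2 (chr4:46668238-46668330, 6 CpGs), young STD mice were at 15.5 to 74.8% (median 39.4%), aged STD mice at −0.278 to 38.7% (median 17.7%) and aged ENR mice at 2.51 to 26.3% (median 13.1%). The aging difference was −23.8 ± 8.40 points (limma, adjusted p = 0.915) and the ENR difference −1.24 ± 8.07 points. Without young STD replicate 8, the mouse at 74.8%, the aging difference was −16.5 points. It was −6.27 points in Grin2d and −24.4 points in Gabbr2 without aged STD replicate 5. Both stretches are printed as above, with measured CpGs in capitals.
Grin2d intron (chr7:45873280-45873406): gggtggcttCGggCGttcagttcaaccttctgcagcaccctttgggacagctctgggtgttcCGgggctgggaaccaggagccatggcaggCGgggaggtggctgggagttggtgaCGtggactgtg
Gabbr2 intron (chr4:46668228-46668340): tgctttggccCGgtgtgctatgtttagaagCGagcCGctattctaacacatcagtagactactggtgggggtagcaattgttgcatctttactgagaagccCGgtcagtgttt
Each holds few CpG sites, 5 and 4, all of them measured.

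Other clusters were in the last coding exon of Grin2b (chr6:135732288-135732412), at 75.1, 92.3 and 79.5% in the young STD, the aged STD and the aged ENR group (aging difference 17.2 ± 6.996 points, limma, adjusted p = 0.915), and downstream of Grin2d (chr7:45830358-45830677), at 0.0713, 2.43 and 0.554% (2.36 ± 0.996 points, adjusted p = 0.915). The first was 11.1 points without young STD replicate 5, and the second 2.81 points without aged STD replicate 5, which had no value in the first. For ENR, the smallest p-values were in Grik4. Its intron cluster at chr9:42897492-42897762 was at 2.22, −0.26 and 6.43% in the 3 groups, with an ENR difference of 6.69 ± 2.54 points (limma, adjusted p = 0.966). The 7 aged STD mice were at or under 0 and 4 of the 6 aged ENR mice were above 0. A second intron cluster (chr9:42524215-42524280) was at 100% in all 7 aged ENR mice and at 89.3 to 100% in aged STD mice, and the difference was 3.57 ± 1.46 points (limma, adjusted p = 0.966). It was 1.79 points without aged STD replicate 6, the mouse at 89.3%. A promoter cluster of Grik4 (chr9:42943800-42943939) differed by 4.42 ± 2.23 points and one of Grm8 (chr6:28134952-28135088) by 2.05 ± 1.05 points (limma, adjusted p = 0.966 each). The differences at chr9:42897492, chr9:42943800 and chr6:28134952 were 6.5, 4.41 and 1.77 points without aged STD replicate 5.

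At single CpGs the difference between group means exceeded 25 points, the size criterion of the study, at 205 of the 1869 receptor CpGs for aging (10.97%), 87 higher and 118 lower in aged STD mice, where 9.15% of all CpGs exceeded it. For ENR it was 187 (10.01%), 77 higher and 110 lower in aged ENR mice, against 8.33% of all CpGs. In promoters 20 of 692 receptor CpGs (2.89%) exceeded it in each comparison, against 4.47% of all promoter CpGs for aging and 3.92% for ENR. In bodies 176 of 1082 (16.3%) did for aging and 163 (15.1%) for ENR, against 14.5 and 13.5% of all body CpGs. The shares over all receptor CpGs and over bodies were thus near those of the table, and those in promoters were lower, which was not tested. Without aged STD replicate 5, the criterion was exceeded by 193 of 1787 receptor CpGs for aging (10.8%) and 180 for ENR (10.1%), against 9.46 and 8.77% of all CpGs.

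For aging the share of CpGs over 25 points ran from 7.69% in AMPA receptor genes to 15.2% in GABA-B genes, and for ENR from 4.04% in GABA-A genes to 15.6% in kainate receptor genes. Grik4, with 174 CpGs, had 31 over 25 points for aging (17 higher, 14 lower) and 40 for ENR (13 higher, 27 lower). Gabbr2, with 143 CpGs, had 29 (14 higher, 15 lower) and 21 (11 higher, 10 lower). Gabbr1 had 1 of 54 for aging and 0 for ENR, and Gabrb2 had 0 of 11 in both. The median SD between mice of a group was 33.3 points at the 663 receptor CpGs between 10 and 90%, 10.05 points at the 269 over 90% and 0.248 points at the 937 under 10%. In the whole table these medians were 33.3, 8.44 and 0 points.

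With mice as replicates, limma gave an unadjusted p under 0.05 at 43 receptor CpGs for aging (2.30%; 14 higher, 29 lower) and 38 for ENR (2.03%; 14 higher, 24 lower), where 2.23 and 1.9% of all CpGs did. An adjusted p under 0.05 with a difference over 25 points was found at 0 receptor CpGs and at 0.00475% of all CpGs for aging and 0.00432% for ENR. Leaving out aged STD replicate 5, the counts were 37 (19 higher, 18 lower) and 35 (6 higher, 29 lower) of 1787, 2.07 and 1.96%, against 2.26 and 2.005% of all CpGs, so that the direction of the aging count rested on this library. The lowest adjusted p among receptor CpGs was 0.204 for aging and 0.198 for ENR, both at the same CpG of Grik4 (chr9:42901687, plus strand, intron), which was singled out after its values were seen. It had a value in 3 mice of each group, which were 0, 0 and 0% in young STD mice, 68.2, 48.3 and 50% in aged STD, and again 0, 0 and 0% in aged ENR mice. Aged STD mice lay apart from the other 6, and CpGs at chr9:42901658 and chr9:42901663 in the same stretch gave 0% in the 6 young STD and aged ENR mice and 45.5 to 68.2% in aged STD mice. The difference at chr9:42901687 was 55.5 ± 5.06 points for aging and −55.5 ± 5.06 points for ENR (limma, adjusted p = 0.204 and 0.198). Of the neighbours, chr9:42901634 differed by 53.4 points for aging and −37.5 points for ENR, with aged ENR mice at 15.9% on average, and chr9:42901619 and chr9:42901693 by 24.4 and 7.04 points for aging and by 30.1 and −38.5 points for ENR. The stretch (chr9:42901609-42901703) has its 6 measured CpGs in capitals.
Grik4 intron: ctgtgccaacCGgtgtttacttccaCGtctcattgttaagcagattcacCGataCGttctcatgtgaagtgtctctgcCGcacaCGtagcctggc

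Among the 591 receptor CpGs measured in 5 or more mice per group, the smallest p was that of a CpG in an intron of Grin3a (chr4:49673855, minus strand). Young STD mice were at 52.7 to 100% (median 85.9%, 8 mice), aged STD mice at 63.0 to 100% (median 100%, 7 mice) and aged ENR mice at 0 to 81.1% (median 50%, 7 mice). Of the aged ENR mice 5 were below the lowest aged STD mouse and 2 lay within the aged STD range. The ENR difference was −48.1 ± 11.2 points (limma, adjusted p = 1), and the aging difference 8.15 ± 10.8 points. The ENR difference was −46.9 points without aged STD replicate 5. The CpGs at chr4:49673844 and chr4:49673876, in the same short stretch, differed by −24.6 ± 9.70 and −24.9 ± 10.01 points for ENR. The stretch (chr4:49673832-49673888) is shown with these 3 CpGs in capitals.
Grin3a intron: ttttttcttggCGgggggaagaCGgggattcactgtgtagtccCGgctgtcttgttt

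Gabbr2 and Grm8 gave the smallest p-values for aging among these CpGs. At chr4:46668258, inside the Gabbr2 intron cluster above, young STD mice were at 24.3 to 100% (median 58.8%), aged STD mice at 0 to 64.2% (median 0) and aged ENR mice at 0 to 91.7% (median 11.8%), so that 6 of 7 aged STD mice were below the lowest young STD mouse. The aging difference was −56.4 ± 17.5 points and the ENR difference 10.7 ± 16.6 points (limma, adjusted p = 1 for both). On the opposite strand of this CpG the differences were −25.9 points for aging and −3.88 points for ENR. At chr4:46800059, in another Gabbr2 intron, young STD mice were at 0 to 9.80% (median 0), aged STD mice at 0, 0, 53.5, 100 and 100%, and aged ENR mice at 0 to 24.7% (median 0). The differences were 48.7 ± 17.2 points for aging and −45.4 ± 16.0 points for ENR, and both rested on 3 aged STD mice. The 2 measured CpGs within 50 bp of chr4:46800059 differed on average by 15.1 points for aging and 8.38 points for ENR. The aging differences at chr4:46668258 and chr4:46800059 were −54.5 and 61.4 points without aged STD replicate 5.

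In Grm8, the CpG at chr6:28051964 was at 16.0 to 57.1% (median 36.0%) for young STD, 0 to 34.7% (median 0) for aged STD and 0 to 72.2% (median 24.5%) for aged ENR mice, with differences of −28.4 ± 10.98 and 24.5 ± 10.6 points. The CpG at chr6:27943094 was at 68.8 to 100% (median 100%) in young STD mice, 46.9 to 100% (median 49.2%) in aged STD mice, 5 of which lay under 60%, and 51.8 to 100% (median 100%) in aged ENR mice. Its differences were −29.3 ± 11.2 points for aging and 34.6 ± 10.3 points for ENR (limma, adjusted p = 1). At chr6:27413834 the groups were at 0 to 100% (median 100%), 55.0 to 100% (median 100%) and 0 to 75.9% (median 45.8%), and the ENR difference was −56.5 ± 19.9 points. Its 1 measured neighbour within 50 bp differed by 3.57 points for ENR. Without aged STD replicate 5, the ENR difference at chr6:27413834 was −55.3 points and the aging difference at chr6:28051964 was −27.3 points. In Grik4, the CpG at chr9:42623913 was at 61.5 to 100% (median 100%) for young STD, 41.7 to 100% (median 100%) for aged STD and 0 to 83.3% (median 0) for aged ENR mice, with 3 of 5 aged ENR mice at 0. Its ENR difference was −60.2 ± 18.1 points (limma, adjusted p = 1). The bases around these 4 intron CpGs, which are isolated or have 1 measured neighbour within 50 bp, are printed with the measured CpG in capitals.
Grm8, chr6:28051964: gcctaagctactgcCGgatcaccttctggt
Grm8, chr6:27943094: agctatcatttctaCGgtaaaaaatgttta
Grm8, chr6:27413834: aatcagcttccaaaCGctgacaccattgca
Grik4, chr9:42623913: ggctgagaaaagccCGggaaggcaggaaga

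**Figure D5:**
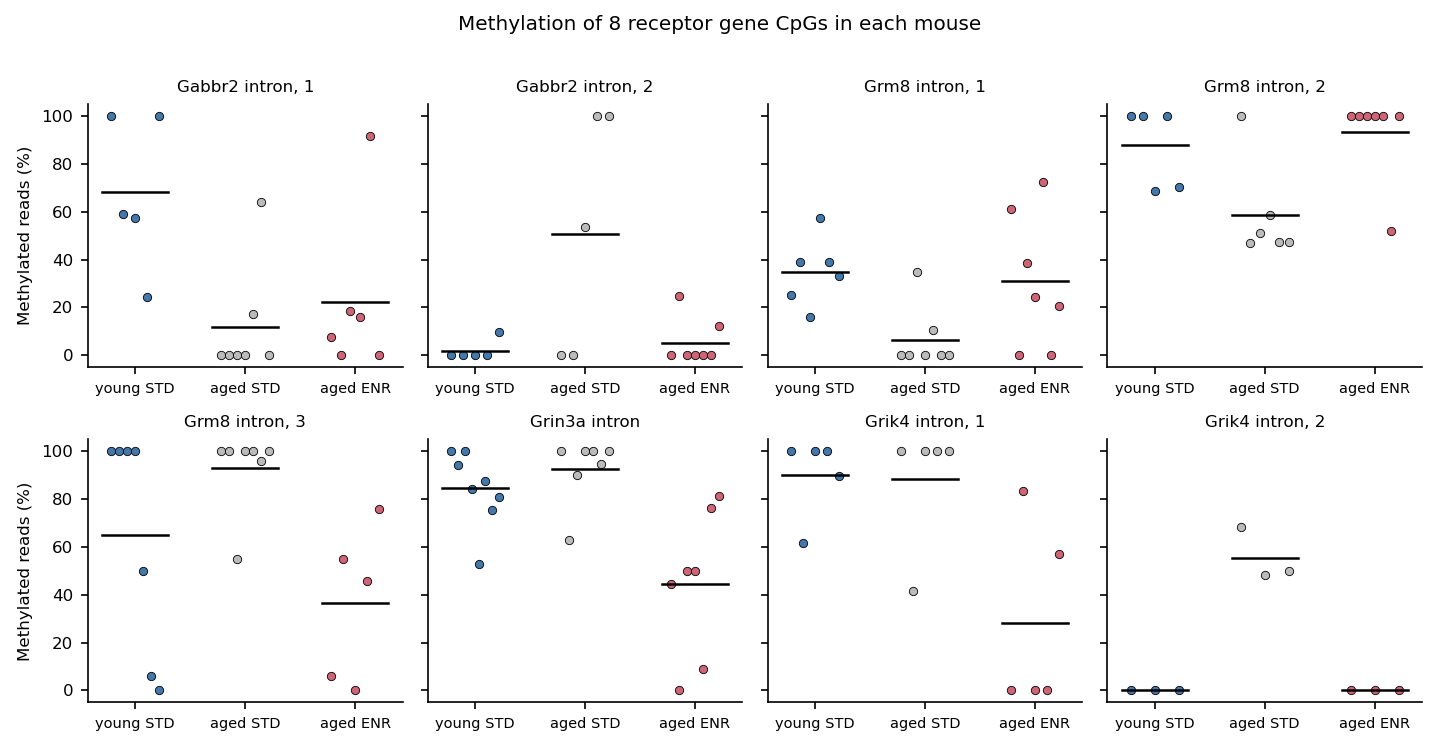
Percentage of methylated reads (y axis) at 8 intron CpGs of Gabbr2, Grm8, Grin3a and Grik4 in each mouse (points) by group (x axis), with the group mean (line). The panels are, in order, chr4:46668258 and chr4:46800059 of Gabbr2, chr6:28051964, chr6:27943094 and chr6:27413834 of Grm8, chr4:49673855 of Grin3a, and chr9:42623913 and chr9:42901687 of Grik4; the last panel has 3 mice a group and no overlap between aged STD mice (48.3 to 68.2%) and the other groups (0%).

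Genes that act with these receptors were counted in the same way, and their counts at an unadjusted p stand against the 5.37 and 4.79% of all promoters and the 6.04 and 4.95% of all bodies given above. Of 18 genes for auxiliary and trafficking proteins, such as Cacng2 and Grip1, 15 promoters were tested, with a median level of 2.64%, and 0 passed the adjusted threshold (limma). At an unadjusted p under 0.05 there were 0 for aging and 1 for ENR, Grip1, at 1.87, 2.50 and 0.415% in the young STD, the aged STD and the aged ENR group. Of 17 genes for transmitter synthesis, loading and uptake, 11 promoters were tested, with a median level of 2.40%, and 0 passed (limma). At an unadjusted p under 0.05 there was 1 for aging, the glial glutamate transporter gene Slc1a3, at 18.4, 20.3 and 18.6%, and 0 for ENR. At the bodies, 16 genes of the first list and 13 of the second were tested and 0 passed (limma). At an unadjusted p under 0.05 there were 0 and 0 of the first list, with median differences of 1.75 points for aging and 0.239 points for ENR. In the second list there were 0 for aging and 1 for ENR, and the median differences were 1.04 points for aging and −5.62 points for ENR. As a check of the tissue, the promoters of the granule neuron genes Prox1 and Dsp were at 1.83 and 2.09%, those of the neuronal genes Rbfox3, Snap25 and Syt1 at 1.17 to 4.20%, those of the interneuron genes Gad2 and Gad1 at 2.17 and 6.10%, and those of the oligodendrocyte genes Mbp and Cnp at 9.98 and 20.03%. Promoters of the astrocyte genes Slc1a3 and Aldh1l1 were at 19.1 and 34.9%, and that of the microglial gene Aif1 at 82.0%. In the transmitter list, the promoters of Slc1a2 and Glul were lower, at 2.40 and 8.29%. A promoter was tested for 2 of 3 granule neuron, 3 of 4 neuronal and 2 of 5 interneuron markers. The same was so for 2 of 5 oligodendrocyte, 2 of 4 astrocyte and 1 of 5 microglial markers. The promoter of Gad1 was at 9.85, 2.27 and 6.17% in the young STD, the aged STD and the aged ENR group. That of Gad2 went the other way in both comparisons, at 1.36, 3.05 and 2.10%. None of these promoters passed an adjusted p under 0.05 in either comparison.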

How the data were processed

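RRBS was run on dentate gyrus DNA of 24 mice. Reads were trimmed by the authors and mapped with Bismark to mm10, and CpGs with under 10 reads or extreme coverage were dropped with methylKit. The submitters' processing notes list Trim Galore 0.4.0, cutadapt 1.8.1, Bismark 0.16.1 and methylKit 1.5.2, and the paper names other versions of Trim Galore and Bismark. The authors deposited 1 table with the percent of methylated reads of each CpG in each mouse, strands apart and mice not pooled, restricted to CpGs covered in 3 or more mice per group. Each percent thus rests on at least 10 reads, but the read number itself is not given, so no counting interval was computed, and the number of mice limits the precision.

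Mice were grouped by their labels. Receptor genes, companion genes and marker genes were chosen with earlier results of these data known. Genes and starts came from GENCODE M21 and sequence from RefSeq, both GRCm38, the build of mm10. A promoter was within 1000 bp of any transcript start of the gene, and the body was the rest of its span. A region or cluster level of a mouse was the mean deviation of its values from the CpG means, added to the mean of those means, over at least 3 CpGs of a region with at least 5 CpGs (clusters at least 4, gaps at most 100 bp). Group-means models were fitted in limma 3.58.1 (R 4.3.3) across all CpGs, clusters, promoters or bodies, with Benjamini-Hochberg adjustment, after a check on simulated data. CpG calls also needed a difference over 25 points. As no record ties mice to litters or dates here, p-values measure the spread between these mice. Text and plots used Python 3.11.15, numpy 2.4.6, pandas 2.3.3 and matplotlib 3.10.9.

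All 33 genes were reported by class. Given in detail were the 3 promoters and 3 bodies with the smallest unadjusted p in each comparison, the 3 highest promoter levels, and the 4 CpGs and 4 clusters with the smallest p among those with at least 5 mice a group. The alternatives were a minimum of 5 mice a group, other thresholds, strands averaged, a log2 scale, array weights, plain means, other promoter widths, the replicate number as a block, and leaving out each mouse, which for class levels and the 3 highest promoters was added after seeing the data. Same-numbered mice were different animals. One result of the companion genes is not reported here.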

Additional observations from a re-analysis of the deposited data

Results flagged for a closer look

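Of 129 groups of 5 to 8 mice checked at receptor classes, named regions and named CpGs, 25 held 1 mouse far from the others of its group, with a gap of more than 0.526 of the range for 8 mice and correspondingly more for fewer. Chance alone flags about 1 in 20 groups, and values that pile up at 0 or 100% are flagged more easily. Among class levels, these were delta receptor bodies in aged STD replicate 5 (34.6%) and aged ENR replicate 1 (64.2%), metabotropic promoters in young STD replicate 8 (13.4%) and aged ENR replicate 1 (20.9%), GABA-A promoters in aged STD replicate 3 (6.69%), GABA-A bodies in aged ENR replicate 5 (85.0%) and GABA-B promoters in aged STD replicate 8 (14.1%).

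Among gene regions, they were the promoters of Gabbr2 in aged ENR replicate 3 (8.33%), Gabra5 in aged STD replicate 4 (2.89%) and Grm2 in young STD replicate 1 (6.15%), and the body of Grin2d in aged ENR replicate 1 (57.1%). Among clusters, they were that downstream of Grin2d in young STD replicate 3 (2.90%) and those of Grik4 at chr9:42524215 in young STD replicate 8 (97.96%), chr9:42897492 in aged STD replicate 5 (−1.41%) and chr9:42943800 in aged STD replicate 6 (1.84%).

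Among CpGs, Gabbr2 had 3, which were chr4:46668258 in aged STD replicate 7 (64.2%) and aged ENR replicate 7 (91.7%) and chr4:46800059 in young STD replicate 8 (9.80%). Grm8 had chr6:28051964 in aged STD replicate 3 (34.7%), chr6:27943094 in aged STD replicate 1 (100%) and aged ENR replicate 7 (51.8%), and chr6:27413834 in aged STD replicate 3 (55.0%). The others were chr4:49673855 of Grin3a in aged STD replicate 2 (63.0%) and chr9:42623913 of Grik4 in young STD replicate 2 (61.5%) and aged STD replicate 2 (41.7%). The cause was not tested for any of these values.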

How the results depend on the processing

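No receptor promoter, body or cluster passed the adjusted threshold under any alternative run. At CpGs, a log2 scale called 3 for aging (all higher in aged STD mice) and 3 for ENR (all lower in aged ENR mice), at chr9:42901658, chr9:42901663 and chr9:42901687 of Grik4, which was 0.161% of receptor CpGs against 0.00446 and 0.00648% of all CpGs. These 3 CpGs lie in 1 stretch and have values in the same mice, so they are not independent and the share rests on 1 place. Both comparisons also use the same aged STD mice. The other alternatives called 0 apart from the replicate block. With a replicate block, 1 receptor CpG was called for ENR, chr9:42670092 of Grik4, with 3 or 4 mice a group, all at 0 or 100%. The difference fitted with the block was 100 points for aging and −100 points for ENR (limma, adjusted p = 0.000238 and 0.000254). The size criterion was applied to the plain group means, which differed by 25 points for aging and were thus not over it, so that the aging count was 0, while calls in the whole table went from 33 to 346 for aging and from 30 to 265 for ENR. The numbers do not pair the mice, since same-numbered mice of different groups correlated at −0.00387 on average (24 pairs, −0.0405 to 0.0205).

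The number of receptor CpGs over 25 points for aging and ENR became 427 and 398 over 15 points (22.8 and 21.3%, against 20.6 and 19.4% of all CpGs) and 74 and 51 over 40 points (3.96 and 2.73%, against 2.63 and 2.27%). It was 31 and 29 of the 591 CpGs with at least 5 mice a group (5.25 and 4.91%, against 5.15 and 4.72%). It was 168 to 210 for aging and 159 to 192 for ENR when each mouse was left out. The mean promoter level of 4.33% was 5.69% with promoters of 2000 bp, and the mean body level of 48.5% was 46.3% with at least 5 mice a group, 45.0% with promoters of 500 bp and 52.3% with promoters of 2000 bp. Leaving out single mice gave 4.24 to 4.39% and 48.3 to 48.7%. Of 820 values under alternatives of the 28 differences chosen by their small p (12 of gene regions, 8 of clusters and 8 of CpGs), 819 kept their direction. The exception was the ENR difference of the Grm2 promoter, 1.71 points with promoters of 2000 bp. Other differences turned when 1 mouse was left out, such as those of the Grik5 promoter and of kainate bodies for aging and of metabotropic promoters for ENR. A minimum of coverage could not be varied, since the table holds no read numbers, and depth therefore limits every single value to an unknown extent.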
